A study of Mus musculus with 6 samples.

Results

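The genes described here are 10 integrin subunits of the mouse embryonic limb: Itga1, Itga2, Itga10 and Itga11, Itga5 and Itgav, the beta chains Itgb1 and Itgb5, and the laminin receptor chains Itga6 and Itgb4. They were taken by gene name, which gave 23 probes of the 41174 measured and 10 genes of the 19504 that could be named. Levels were read on 6 one-colour arrays, 1 for each combination of 3 tissues and 2 genotypes. Tissue was cut by laser from frozen sections of C57BL/6 autopods (hand and foot plates) at stage E14.5. The 3 tissues are interzone, the strip of cells where a joint will form, growth plate chondrocytes next to it, and interdigital tissue. The mutant groups are Tgfbr2Prx1KO interzone, growth plate and interdigital tissue, and the control groups are the same 3 tissues of wild type littermates. Prx1 drives recombinase in early limb mesenchyme, so the name stands for loss of the type II TGF-beta receptor from mesenchyme and its descendants, while epidermis, endothelium, blood and muscle precursors are not targeted. Autopods came from 2 mutant and 2 control embryos, and the sources used here do not say how many embryos or cells each array holds. The cDNA was amplified by PCR before 250 ng was labelled. One interdigital title spells the genotype Tbr2Prx1KO, and the descriptions of 5 arrays name irradiated human blood, so groups were taken from the titles, with which the tissue and genotype fields fit.

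Integrins are receptors made of 1 alpha and 1 beta chain that span the cell membrane and couple the matrix outside to actin or keratin filaments inside. Alpha1, alpha2, alpha10 and alpha11 pair with beta1 and bind collagens, alpha5 with beta1 binds fibronectin, and alphav pairs with several beta chains, among them beta1 and beta5, to bind proteins with an Arg-Gly-Asp (RGD) stretch. Alpha6 binds laminin with beta1 or beta4, and alpha6 with beta4 builds the hemidesmosome, the plaque that holds epidermis to its basement membrane. In cartilage alpha10 with beta1 is a main collagen II receptor of chondrocytes, alpha11 marks fibroblast-like mesenchyme around forming cartilage, and alphav integrins can release TGF-beta from its latent complex.

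Each group has 1 array, so no difference below has a replicate check and no test was made. A level is the log2 of a probe's processed signal over the array's 75th percentile, so 0 is the signal that 1 spot in 4 exceeds, and levels compare arrays for 1 probe, not probes with each other. A gene is represented by its brightest probe. A difference counts as called when it is at least 2-fold between 2 arrays on which the probe is well above background, and where only 1 array reaches that mark a bound is given. The scanner's detection mark was met by 72.3% to 88.3% of spots. The growth plate control array had the lowest share and a median processed signal of 103, against 340 to 502 on the other 5 arrays. Probes spotted at least 5 times on an array had a median spot SD of 0.072 to 0.099 on the log2 scale. Tgfbr2, the targeted gene, had levels at its brightest probe of 2.22 in mutant and 2.42 in control interzone, 1.91 in mutant and 2.49 in control interdigital tissue, and 1.20 on the array labelled growth plate mutant, against −2.42 on that labelled growth plate control. A second probe, well above background on all 6 arrays, read 0.87 in mutant and −0.06 in control interzone, 0.52 in mutant and 0.45 in control interdigital tissue, and −1.24 and −2.97 on the growth plate arrays labelled mutant and control. A dim probe read −6.99 in mutant and −3.40 in control interdigital tissue and was not well above background on 3 arrays. Of the growth plate arrays it was well above background only on the labelled mutant, at −5.15. The growth plate pair thus runs against its labels at the first 2 probes, and the interzone and interdigital pairs were less than 2-fold apart there. At the dim probe the growth plate pair also runs against its labels, as far as detection shows. The sources used here do not say whether the probes lie in the deleted part, so mutant and control stand for the labels in all 3 tissues. All 3 control arrays and the interzone mutant array were on slide 1, and the other 2 mutant arrays on slide 2. Genotype and slide therefore cannot be told apart in the growth plate and interdigital pairs. Nor can tissue and slide where mutant interzone is set against the other 2 mutant arrays. Cartilage markers summed to 754 (linear level, over 15 genes) on the array labelled growth plate control, the highest of the 6, and to 86.6 on that labelled growth plate mutant, below the 94.0 of mutant interzone. Interzone markers, Gdf5 among them, summed to 23.1 in mutant and 56.0 in control interzone over 12 genes on the array. Their sums were 16.6 and 25.5 on the growth plate arrays labelled mutant and control. In interdigital tissue they summed to 27.0 in mutant and 19.8 in control. Control interzone thus had the highest sum, while mutant interzone lay below the labelled growth plate control and mutant interdigital tissue. Interdigital markers summed to 29.6 in mutant and 30.3 in control interdigital tissue, and these sums did not stand above those of the other tissues (23.4 to 37.6). Interdigital markers at least 2-fold apart were also counted by gene, with the shares of all genes lower and higher in brackets. Against control interdigital tissue, 7 of 12 were lower and 2 higher on the labelled growth plate control (24.9% and 24.7%). In control interzone 1 was lower and 2 were higher (14.7% and 15.0%). Against mutant interdigital tissue, 4 were lower and 1 higher on the labelled growth plate mutant (16.2% and 13.3%). In mutant interzone 2 were lower and 2 higher (18.1% in each direction). In captured tissue, fewer cells of a type and less RNA per cell cannot be told apart.

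Set against control, 4 of 9 measured members were lower and 4 were higher in mutant interzone, where 23.1% of 16681 genes were at least 2-fold lower and 17.5% at least 2-fold higher. On the growth plate arrays 6 of 9 were lower and 1 was higher in the labelled mutant, against 32.1% and 22.3% of 16169 genes. In mutant interdigital tissue 3 of 10 were lower and 0 were higher, against 15.8% and 10.2% of 17797 genes. The median difference of the measured members was 0.08 in interzone, −1.33 on the growth plate arrays and −0.17 in interdigital tissue, and that of all measured genes was −0.13, −0.43 and −0.17. Itga10, Itga11 and Itgav were lower in all 3 pairs, as were 1.9% of 15610 genes, and no member was higher in all 3 (1.61% of genes). Counted by probe, 4 of 18 measured were lower and 8 higher in mutant interzone (24.2% and 20.0% of all probes), 8 of 18 lower and 4 higher on the labelled growth plate mutant (30.9% and 25.2%), and 5 of 22 lower and 2 higher in mutant interdigital tissue (18.9% and 11.9%). Of Itga10, Itga11 and Itgav, Itga10 kept this under every alternative, Itga11 missed 2-fold in interdigital tissue in the deposited table, and the growth plate direction of Itgav turned when all its probes were averaged.

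**Figure D1:**
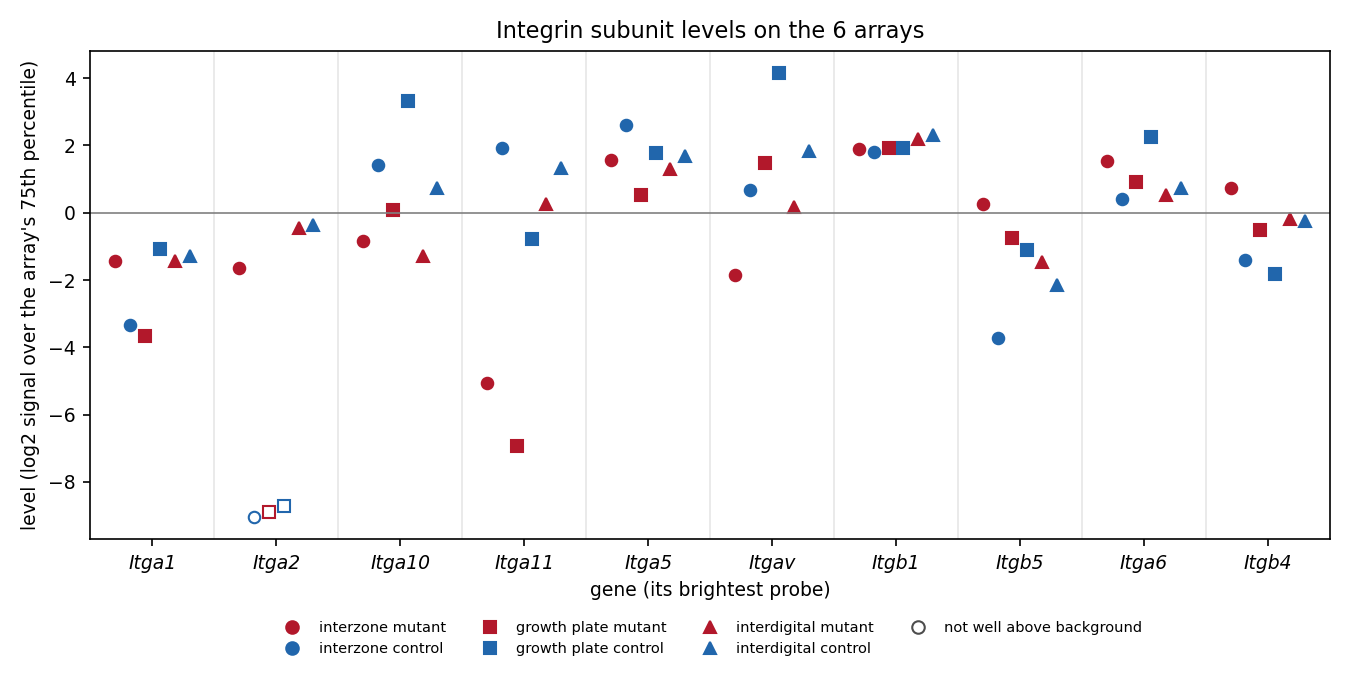
Level of each integrin subunit at its brightest probe on the 6 arrays, as log2 of the signal over the array's 75th percentile, with mutant arrays in red and control arrays in blue as labelled; open marks are not well above background. Itga11 reads −5.07 in mutant interzone, against 1.92 in control interzone, while the 6 Itgb1 marks lie within 0.50.

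The upstream sequences below are shown because Itga10, Itga11 and Itgav were lower in all 3 pairs, with Itgb1, whose brightest probe hardly moved, set beside them. Each is the 250 bases before the annotated start in RefSeq on GRCm38.p6, on the gene's strand, which for these 4 genes is the plus strand. Of the 10 members, 8 had an entry. Capitals mark matches, on either strand, of 4 short motifs: CAGAC (SMAD box), GGGCGG (GC box), TGANTCA (AP-1) and CATTCC (TEAD).
Itga11, chr9:62677605-62677854: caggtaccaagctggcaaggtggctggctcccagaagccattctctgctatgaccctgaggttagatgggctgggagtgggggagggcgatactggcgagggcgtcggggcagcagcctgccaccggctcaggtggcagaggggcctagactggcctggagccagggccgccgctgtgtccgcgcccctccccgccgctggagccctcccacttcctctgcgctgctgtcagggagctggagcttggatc
Itga10, chr3:96645334-96645583: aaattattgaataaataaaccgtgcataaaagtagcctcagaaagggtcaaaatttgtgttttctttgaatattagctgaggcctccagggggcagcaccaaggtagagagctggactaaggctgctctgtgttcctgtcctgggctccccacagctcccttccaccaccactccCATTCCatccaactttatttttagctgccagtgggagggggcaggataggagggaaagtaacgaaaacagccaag
Itgav, chr2:83724147-83724396: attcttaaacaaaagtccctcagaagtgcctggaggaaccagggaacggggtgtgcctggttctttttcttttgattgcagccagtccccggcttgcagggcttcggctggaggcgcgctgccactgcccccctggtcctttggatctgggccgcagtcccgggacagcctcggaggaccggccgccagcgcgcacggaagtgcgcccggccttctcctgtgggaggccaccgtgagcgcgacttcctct
Itgb1, chr8:128685404-128685653: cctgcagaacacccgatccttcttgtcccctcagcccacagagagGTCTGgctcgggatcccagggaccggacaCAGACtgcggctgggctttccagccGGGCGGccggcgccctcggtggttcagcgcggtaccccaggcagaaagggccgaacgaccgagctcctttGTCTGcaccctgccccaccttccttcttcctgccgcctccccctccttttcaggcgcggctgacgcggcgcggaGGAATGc

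The motifs were picked after the levels and sequences had been seen, and a match is a description of letters, not a bound site. Itga11 and Itgav held none of the 4 motifs in this window. Itga10 held 1 CATTCC, 75 bases before the start, a motif present in 12.6% of 32851 mouse promoter windows of the same length. Itgb1 held 3 CAGAC, 1 GGGCGG and 1 CATTCC, none overlapping another. Of the members with an entry not printed, Itga2 held 3 CAGAC, Itga1 1 CAGAC, Itga5 2 GGGCGG and Itgb5 3 GGGCGG. The share of windows with a match was 42.2% for CAGAC, 32.7% for GGGCGG and 6.75% for TGANTCA.

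Among the collagen receptors, Itga11 had the widest measured differences between genotypes in interzone and on the growth plate arrays, though not in interdigital tissue. Its probe, at chr9:62812215-62812274 in the array's own coordinates (build not given in the sources used here), read −5.07 in mutant interzone, against 1.92 in control interzone, a difference of −6.98 or 127-fold. It read −6.93 on the array labelled growth plate mutant, against −0.79 on that labelled control, a difference of −6.15 or 70.8-fold. Interdigital tissue gave 0.27 in mutant and 1.34 in control, 2.11-fold lower. Levels thus ran from control interzone at the top, through control and mutant interdigital tissue and the labelled growth plate control, to mutant interzone and the labelled growth plate mutant. The range of 8.85 over 6 arrays was larger than that of 99.9% of the 15610 genes well above background throughout. Both low values were dim but above background, with signals of 55.4 in mutant interzone and 16.6 on the array labelled growth plate mutant, and with scanner error estimates of 12.9% and 18.7%. With normexp background correction the differences shrank to 11.0-fold in interzone and 14.2-fold on the growth plate arrays, both still lower.

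In control embryos Itga10 had the same order of tissues as the cartilage marker sums, with growth plate first, then interzone and interdigital tissue, the last pair within 2-fold. Its probe read −0.85 in mutant and 1.42 in control interzone, 4.82-fold lower. The growth plate arrays gave 0.09 for the labelled mutant and 3.33 for the labelled control, its highest level, 9.41-fold lower. The interdigital levels were −1.28 in mutant and 0.74 in control, 4.06-fold lower. Every mutant array thus lay below every control array for this gene. Cartilage markers moved beside it: 11 of 15 were lower in mutant interzone, 14 of 15 on the labelled growth plate mutant and 4 of 15 in mutant interdigital tissue, and none was higher in any of these pairs. Of all genes, 23.1%, 32.1% and 15.8% were lower in these pairs. The summed level of the cartilage markers was 94.0 in mutant and 201 in control interzone. It was 86.6 on the labelled growth plate mutant and 754 on the labelled control, and 78.2 in mutant and 116 in control interdigital tissue. The part of cartilage content in the Itga10 differences was not tested.

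Itga1 and Itga2 gave values that depended on tissue and on probe. The brightest Itga1 probe read −1.44 in mutant and −3.32 in control interzone, 3.68-fold higher. Values on the growth plate arrays were −3.65 for the labelled mutant and −1.07 for the labelled control, 5.96-fold lower. In interdigital tissue it read −1.42 in mutant and −1.30 in control, less than 2-fold apart. A second Itga1 probe was 33.1-fold lower on the labelled growth plate mutant and less than 2-fold apart in the other pairs. Another differed by less than 2-fold in all 3 pairs, and the last, dim on 3 arrays, was at least 3.55-fold higher on the labelled growth plate mutant. Itga1 thus had probes on both sides in the growth plate pair, and its higher value in mutant interzone stood at 1 of 3 measured probes. With the mean over probes the differences were 0.65 in interzone and −0.84 on the growth plate arrays, both short of 2-fold.

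The brighter Itga2 probe read −1.64 in mutant interzone and was not well above background in control interzone, so it was at least 41.4-fold higher. Both growth plate arrays were too dim for it to be measured. Interdigital tissue gave −0.44 in mutant and −0.38 in control. The other Itga2 probe read −2.91 in mutant and −5.39 in control interzone, 5.57-fold higher. It was at least 5.53-fold higher on the labelled growth plate mutant, and it read −3.58 in mutant and −6.97 in control interdigital tissue, 10.4-fold higher. Both Itga2 probes were therefore higher in mutant interzone, and they parted in interdigital tissue. Epidermis expresses alpha2, and the epidermal markers given below were higher in the mutants too; their part in the Itga2 values was not tested.

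**Figure D2:**
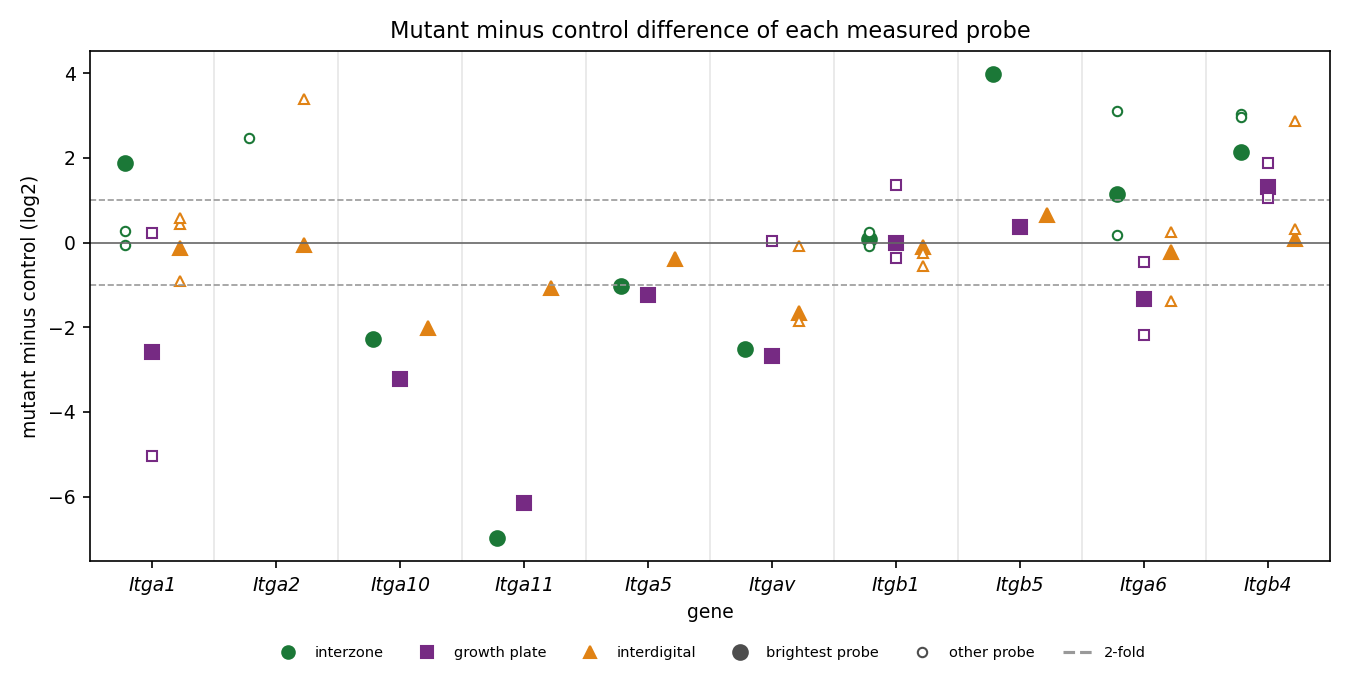
Mutant minus control difference (log2) of every probe that was well above background on both arrays of a pair, by gene and tissue as labelled; large filled marks are the brightest probe and small open marks the others, and dashed lines mark 2-fold. Itga10 and Itga11 lie below the lower line in all 3 tissues, and Itgb5 reaches 3.98 in interzone.

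Of the RGD-binding chains, Itga5, the fibronectin receptor chain, was modestly lower in the mutants. It read 1.57 in mutant and 2.59 in control interzone, 2.03-fold lower. On the growth plate arrays it read 0.53 in the labelled mutant and 1.77 in the labelled control, 2.36-fold lower. The interdigital levels were 1.29 in mutant and 1.67 in control, less than 2-fold apart. The interzone difference was −0.78 in the deposited table and the growth plate difference −0.79 with quantile normalization, so neither call stands under all settings.

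Itgav, which binds vitronectin, fibronectin and latent TGF-beta, was lower at its brightest probe in all 3 pairs. That probe, at chr2:83649692-83649751 in the array's coordinates, read −1.84 in mutant and 0.66 in control interzone, 5.67-fold lower. The growth plate arrays gave 1.48 for the labelled mutant and 4.15 for the labelled control, its highest level, 6.39-fold lower. In interdigital tissue it read 0.17 in mutant and 1.83 in control, 3.17-fold lower. The other 3 probes did so in part. The probe at chr2:83599769-83599828 was at least 22.1-fold lower in mutant interzone and 3.63-fold lower in mutant interdigital tissue. On the growth plate arrays the same probe read −1.14 in the labelled mutant and was not well above background in the labelled control, at least 42.8-fold higher. The probe at chr2:83647270-83647329 was likewise at least 24.1-fold higher there, and the last probe differed by 0.04. The growth plate direction of Itgav thus rested on which probe was read, and averaging its probes gave a difference of 2.73 in place of −2.68.

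Itgb5, the vitronectin receptor chain that pairs with alphav, went the other way in interzone. Its probe read 0.25 in mutant and −3.73 in control interzone, 15.8-fold higher. Values on the growth plate arrays were −0.75 for the labelled mutant and −1.10 for the labelled control, and in interdigital tissue −1.48 in mutant and −2.14 in control, both less than 2-fold apart. Control interzone held the lowest level of the 6 arrays and mutant interzone the highest. The 2 interzone arrays shared a slide.

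**Figure D3:**
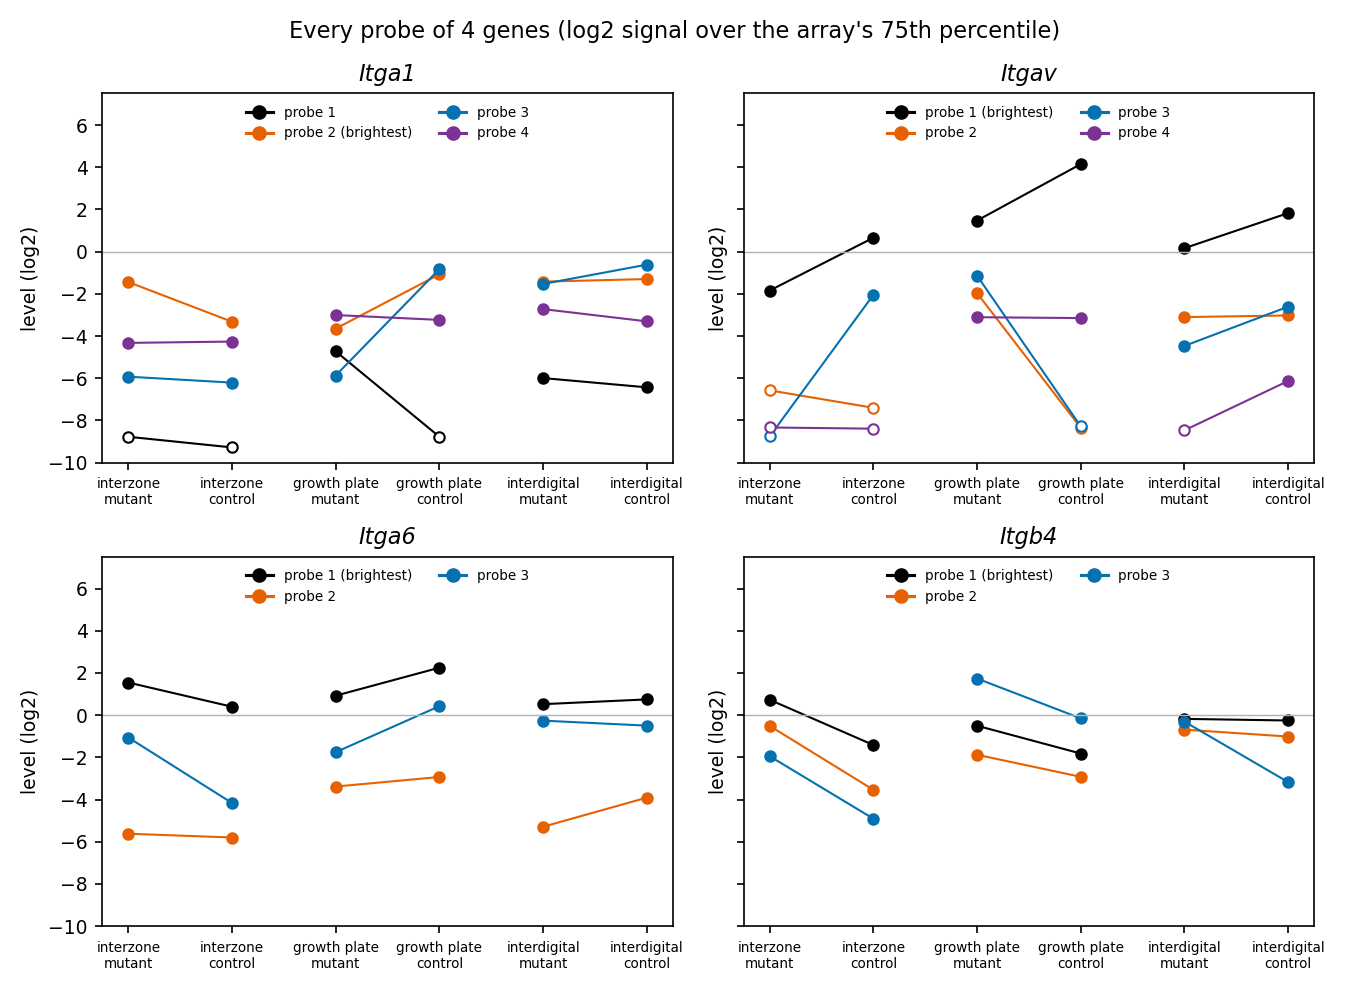
Levels (log2) of every probe of Itga1, Itgav, Itga6 and Itgb4 on the 6 arrays, mutant left of control in each tissue as labelled, with lines joining a probe's values in a tissue and open marks for values not well above background. The Itgav probes diverge on the growth plate arrays, where the brightest reads 1.48 and 4.15 and another −1.14 and −8.29, while the 3 Itgb4 probes keep the mutant above the control.

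Itgb1, the shared partner of most of these alpha chains, was nearly level at its brightest probe, which is spotted 10 times. It read 1.89 in mutant and 1.81 in control interzone, 1.93 on both arrays of the growth plate pair, and 2.20 in mutant and 2.31 in control interdigital tissue. The SD over the 8 to 10 spots kept per array was 0.042 to 0.094, and a spot SD covers the scan, not the spread between embryos. The range of 0.50 over 6 arrays was smaller than that of all but 1.04% of genes. This holds at the scale used here: in the deposited table, which divides by each array's median, the growth plate difference of Itgb1 was −1.13, where the median of all genes was −1.56. A second probe read 1.80 on the labelled growth plate mutant and 0.45 on the labelled control, 2.55-fold higher, and differed by less than 2-fold in the other pairs. The remaining probe differed by less than 2-fold in all 3 pairs and by up to 4.51-fold between tissues.

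The hemidesmosome chain Itgb4 was higher in mutant interzone at all 3 of its probes. The brightest read 0.73 in mutant and −1.41 in control interzone, 4.42-fold higher. On the growth plate arrays it read −0.50 in the labelled mutant and −1.82 in the labelled control, 2.49-fold higher. Interdigital tissue gave −0.18 in mutant and −0.25 in control. A second probe, sharing 50 bases with the first, was 8.17-fold higher in mutant interzone and 2.07-fold higher on the labelled growth plate mutant. The last, which lies 13610 bases away, was 7.79-fold, 3.71-fold and 7.31-fold higher in interzone, on the growth plate arrays and in interdigital tissue. In interdigital tissue this last probe read −0.31 in mutant and −3.17 in control, so the probes parted there.

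Itga6, its laminin-binding partner, moved in opposite directions in 2 tissues. Its brightest probe read 1.55 in mutant and 0.40 in control interzone, 2.22-fold higher. The growth plate arrays gave 0.92 for the labelled mutant and 2.25 for the labelled control, 2.51-fold lower. The interdigital levels were 0.52 in mutant and 0.75 in control. A second probe followed, 8.61-fold higher in mutant interzone and 4.53-fold lower on the labelled growth plate mutant. The remaining probe was less than 2-fold apart in both of these pairs and 2.60-fold lower in mutant interdigital tissue. Itga6 and Itgb4 therefore shared a direction in interzone and not on the growth plate arrays. Neither growth plate call stood under every setting, with −0.79 for Itga6 under quantile normalization and 0.19 for Itgb4 in the deposited table.

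Epidermal markers, such as Krt5, Krt14, Cdh1 and Trp63, were higher in the mutants beside these values. In interzone 12 of 13 were higher in the mutant, with a summed level of 283 in mutant and 30.7 in control. On the growth plate arrays 6 of 11 measured were higher, with sums of 275 on the labelled mutant and 176 on the labelled control. In interdigital tissue 11 of 11 measured were higher, with sums of 222 in mutant and 11.2 in control. Of all genes, 17.5%, 22.3% and 10.2% were higher in these pairs. No epidermal marker was lower in any pair, and Cdh1 and Trp63 were not well above background on the labelled growth plate control and in control interdigital tissue. Itgb4, Itga2 and Itga6 are epidermal genes as well. The Itga6 difference at its brightest probe was 1.15 in interzone, −1.33 on the growth plate arrays and −0.23 in interdigital tissue. The part of epidermal RNA in the values of these genes was not tested. Skeletal muscle and leukocyte markers also moved in interzone, with 8 of 13 and 9 of 13 higher and 0 and 1 lower in the mutant. Endothelial markers had 6 of 13 higher and 2 lower. On the labelled growth plate mutant 8 of 13 muscle markers were lower and 0 higher. Endothelial markers there had 6 of 10 higher and 1 lower, leukocyte markers 4 of 12 higher and 2 lower. In mutant interdigital tissue 6 of 13 endothelial, 4 of 13 muscle and 4 of 13 leukocyte markers were lower, and 1 muscle marker higher. Of all genes, 23.1%, 32.1% and 15.8% were lower in the 3 pairs.

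**Figure D4:**
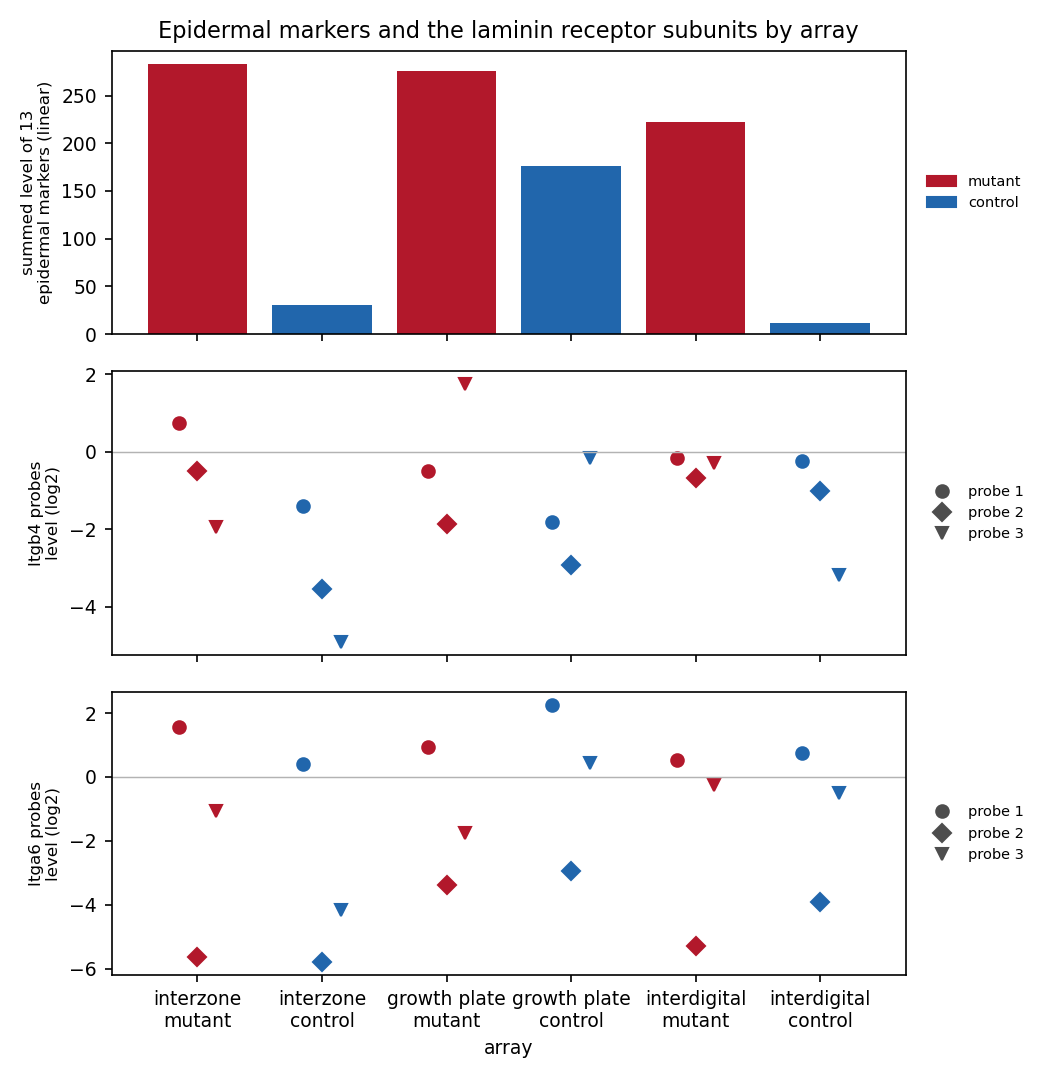
Summed linear level of 13 epidermal markers (bars, from 0) and levels (log2) of the 3 Itgb4 and 3 Itga6 probes on each array, mutant in red left of control in blue as labelled. The marker sum is 283 and 30.7 in interzone and 222 and 11.2 in interdigital tissue, and each Itgb4 probe is at or above its control in all 3 tissues.

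The order of the 6 arrays differed between members, with no replicate spread to set neighbours against. Neighbours less than 2-fold apart had no called order. For Itga5, Itga6 and Itgb4 every neighbouring pair was within 2-fold. Itga5 was highest in control interzone and lowest on the labelled growth plate mutant, Itga6 highest on the labelled growth plate control and lowest in control interzone, and Itgb4 highest in mutant interzone and lowest on the labelled growth plate control. Itgav had the labelled growth plate control on top and mutant interzone at the bottom, each more than 2-fold from the next, with the 4 arrays between them in steps below 2-fold. Itga10 had the labelled growth plate control more than 2-fold above the rest, which followed in steps below 2-fold down to mutant interdigital tissue. Itga1 had control interzone and the labelled growth plate mutant more than 2-fold below the other 4 arrays, which lay together. Itgb5 came down in steps below 2-fold until control interzone, which lay more than 2-fold below its neighbour.

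Between tissues of the same genotype the members differed as well, and these pairs share arrays with each other and with the pairs above. In control embryos 5 of 9 were lower and 1 was higher in interzone than on the labelled growth plate array, against 23.4% and 25.3% of genes. Itgav was 11.2-fold, Itgb5 6.19-fold, Itga1 4.75-fold, Itga10 3.76-fold and Itga6 3.61-fold lower in interzone, and Itga11 6.51-fold higher. The Itgav probes disagreed here too, and the probe at chr2:83599769-83599828 was at least 22.8-fold higher in control interzone. Against interdigital tissue, control interzone had 4 of 9 lower and 0 higher (14.7% and 15.0% of genes): Itga1 by 4.07-fold, Itgb5 by 3.02-fold, Itgav by 2.25-fold and Itgb4 by 2.24-fold. The brighter Itga2 probe, dim in control interzone, was at least 99.8-fold lower there. The other Itga2 probe, well above background on both arrays, went the other way, 2.98-fold higher in control interzone. The labelled growth plate control had 4 of 9 higher and 2 lower than control interdigital tissue (24.7% and 24.9% of genes). Itga10 was 6.02-fold, Itgav 5.00-fold, Itga6 2.84-fold and Itgb5 2.05-fold higher, and Itga11 4.37-fold and Itgb4 2.96-fold lower. The directions of Itgav and Itgb4 depended on the probe here. Other Itgav probes were at least 11.6-fold lower, at least 15.4-fold lower and 7.90-fold higher. An Itgb4 probe read −0.15 on the labelled growth plate control and −3.17 in control interdigital tissue.

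In mutant embryos, the interzone array was on slide 1 and the other 2 arrays on slide 2. Tissue and slide thus cannot be told apart in the 2 pairs with mutant interzone. There, 4 of 9 members were higher and 1 was lower in mutant interzone than on the labelled growth plate mutant (21.1% and 18.3% of genes). Itga1 was 4.62-fold, Itga11 3.64-fold, Itgb4 2.35-fold and Itga5 2.05-fold higher, and Itgav was 9.97-fold lower. The directions of Itga1 and Itgb4 depended on the probe in this pair. An Itgb4 probe was 12.9-fold lower in mutant interzone, and the remaining Itgb4 probe was 2.58-fold higher. Another Itga1 probe read −4.33 in mutant interzone and −3.01 on the labelled growth plate mutant, more than 2-fold lower. A further Itga1 probe was at least 3.44-fold lower in mutant interzone, and the last was within 2-fold. Mutant interzone had 2 of 10 higher and 3 lower than mutant interdigital tissue (18.1% of genes in each direction), with Itgb5 3.31-fold and Itga6 2.04-fold higher, and with Itga11 40.3-fold, Itgav 4.02-fold and Itga2 2.30-fold lower. The other probes of Itga6 and Itga2 were within 2-fold in this pair. The labelled growth plate mutant had 2 of 9 higher and 2 lower than mutant interdigital tissue (13.3% and 16.2% of genes). Itga10 was 2.60-fold and Itgav 2.48-fold higher there, and Itga11 147-fold and Itga1 4.68-fold lower. The other Itga1 probes were 20.3-fold lower, 2.41-fold higher and within 2-fold. The Itga11 folds against mutant interdigital tissue rest on the dim values given above. Itgb1 stayed within 2-fold in all 6 of these pairs at its brightest probe.

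The genes whose levels over the 6 arrays lay closest to each member's, after centring each gene on its mean, were found by root mean square distance among 15609 genes. Around Itga11 no gene lay close: Slc5a6 was nearest at 1.03 and Orai3 next at 1.30 on the log2 scale. Itga10 had N4bp2l2 at 0.28 and Plod2 at 0.28. Itgav had Zmym6 at 0.36 and Plxna2 at 0.44, and Itgb5 had Ttll3 at 0.22 and Rsad1 at 0.26. Itgb4 had Atp2b1 at 0.14 and Klhdc4 at 0.18, Itga6 had Taf1a at 0.14 and Rbm12 at 0.15, and Itga1 had Nectin3 and Cyp2d12, each at 0.21. Itga5 had C6 at 0.085 and Mro at 0.10, and Itgb1 had Zfp985 at 0.075 and Rex2 at 0.081. With 6 values a gene, many genes can lie this close, and Itga2 was dim on 3 arrays and had no such search.

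The other integrin subunits did not move as a group. Of those measured, 4 of 15 were lower and 2 higher in mutant interzone (median −0.15), 4 of 14 lower and 3 higher on the labelled growth plate mutant (−0.40), and 2 of 15 lower and 2 higher in mutant interdigital tissue (−0.10). For this list and those below, the shares of all genes lower and higher were 23.1% and 17.5% in interzone. They were 32.1% and 22.3% on the growth plate arrays, and 15.8% and 10.2% in interdigital tissue. Itga9, a tenascin receptor chain, read −2.93 in mutant and 0.52 in control interzone, 10.9-fold lower. Itga8, the nephronectin receptor chain, was 7.60-fold lower and Itgb8, which with alphav frees latent TGF-beta, 4.68-fold lower in mutant interzone. Itgb6, an epithelial partner of alphav, was 18.7-fold higher in mutant interzone and 30.7-fold higher in mutant interdigital tissue, and dim on both growth plate arrays. Itga2b, the platelet chain, was 12.4-fold lower on the labelled growth plate mutant.

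Collagens that these receptors bind were lower wherever they passed 2-fold, with 1 exception. In mutant interzone 4 of 14 were lower and 0 higher (median −0.70), on the labelled growth plate mutant 9 of 14 were lower and 1 higher (−1.31), and in mutant interdigital tissue 1 of 14 was lower and 0 higher (−0.49). Of all genes, 23.1%, 32.1% and 15.8% were lower in these pairs. The interzone count was thus near the share of all genes and the interdigital count below it. Col2a1, the main cartilage collagen, read 5.43 on the labelled growth plate mutant and 7.96 on the labelled control, 5.77-fold lower. Col9a1 was 22.5-fold and Col11a1 19.9-fold lower there, and Col9a1 was 3.77-fold lower in mutant interzone. Col6a1, a chain of the beaded filament collagen VI, was the exception, 2.25-fold higher on the labelled growth plate mutant. The bone and skin collagen Col1a1 read 5.43 in mutant and 5.61 in control interzone, 5.15 and 5.72 on the growth plate arrays labelled mutant and control, and 5.40 in mutant and 6.26 in control interdigital tissue. Of these 14 collagens, 6 also stand in the cartilage marker list.

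Laminins and other basement membrane genes split by tissue. In mutant interzone 5 of 19 were lower and 3 higher (median 0.01), on the labelled growth plate mutant 4 of 18 were lower and 8 higher (0.63), and in mutant interdigital tissue 1 of 19 was lower and 6 higher (0.17). Lama3 and Lamb3, laminin chains of the epidermal basement membrane, were 108-fold and 16.4-fold higher on the labelled growth plate mutant. They were 8.97-fold and 20.8-fold higher in mutant interdigital tissue. In interzone Lamb3 was 4.40-fold lower in the mutant, while Lama3 stayed within 2-fold. Lama5 was at least 84.8-fold higher on the labelled growth plate mutant and 12.9-fold higher in mutant interdigital tissue. Lamc1, the gamma chain of most laminins, was 12.6-fold lower in mutant interzone and 5.28-fold higher on the labelled growth plate mutant. Col4a1, a collagen IV chain, was 2.26-fold and 5.91-fold higher in these same arrays.

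The hemidesmosome and epidermal anchoring genes, a list that overlaps the laminins, had 4 of 11 higher and 1 lower in mutant interzone (median 0.56), 4 of 11 higher and 3 lower on the labelled growth plate mutant (0.74), and 7 of 12 higher and 1 lower in mutant interdigital tissue (2.39). Col17a1, the collagen of the hemidesmosome, read 1.46 in mutant and −0.20 in control interzone, 3.16-fold higher. It was 29.6-fold higher on the labelled growth plate mutant and 28.6-fold higher in mutant interdigital tissue. Plec, the plakin that ties beta4 to keratin, was 4.70-fold lower on the labelled growth plate mutant and within 2-fold in the other pairs. Frem2, a Fraser complex protein of the embryonic skin basement membrane, was 125-fold higher in mutant interdigital tissue. The epidermal marker sums given above were higher in the mutant in each pair, while genes of this list went both ways. The part of epidermal RNA in these values was not tested.

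Proteins with RGD or other sites for alphav and alpha5, and carriers of latent TGF-beta, were, like all genes in each pair, lower more often than higher. In mutant interzone 3 of 17 were lower and 1 higher (median −0.26), on the labelled growth plate mutant 8 of 15 were lower and 3 higher (−1.07), and in mutant interdigital tissue 5 of 17 were lower and 1 higher (−0.49). Tgfbi, a TGF-beta induced matrix protein, read 0.83 in mutant and 4.33 in control interzone, 11.4-fold lower, and was 88.4-fold lower on the labelled growth plate mutant. Fn1, fibronectin, was 4.63-fold lower on the labelled growth plate mutant and within 2-fold elsewhere. Ccn1, a matricellular ligand of alphav, was lower in all 3 pairs, by 7.19-fold in interzone, 4.46-fold on the growth plate arrays and 3.64-fold in interdigital tissue. Ccn2, its relative, was 28.8-fold lower on the labelled growth plate mutant. Spp1, osteopontin, was at least 491-fold lower on the labelled growth plate mutant. Npnt, nephronectin, was 10.7-fold higher on the labelled growth plate mutant and 3.53-fold higher in mutant interdigital tissue.

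Focal adhesion genes, which carry the signal inside the cell, had 11 of 24 lower and 2 higher in mutant interzone (median −0.71), 7 of 25 lower and 4 higher on the labelled growth plate mutant (−0.28), and 3 of 25 lower and 2 higher in mutant interdigital tissue (−0.29). Fermt2, a kindlin that activates integrins in mesenchyme, read −1.17 in mutant and 1.92 in control interzone, 8.53-fold lower. It was 6.49-fold lower on the labelled growth plate mutant and 2.47-fold lower in mutant interdigital tissue. Fermt1, the epithelial kindlin, was 18.8-fold lower in mutant interzone, yet 82.4-fold higher on the labelled growth plate mutant and 43.0-fold higher in mutant interdigital tissue. Itgb1bp1, which binds the beta1 tail, was 12.3-fold lower in mutant interzone. Tln2, a talin, was at least 53.2-fold lower in mutant interzone, and Vcl, vinculin, was 6.73-fold higher there.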

How the data were processed

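RNA of 6 laser-captured samples was hybridised to one-colour Agilent mouse arrays. Per the file headers, the authors' scanner files were made with Agilent Feature Extraction 9.5.1.1 and give each spot's background-subtracted processed signal intensity. The deposited value table, compared with those files, holds the same processed signal as a ratio to the array's median. Its scale stays linear, with no other centring found. From the deposited intensities, control and outlier spots were left out (a probe with only outlier spots kept them), log2 signals were centred on each array's 75th percentile over all non-control spots, and spots of a probe were averaged. The detection mark is the scanner's own.

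Probes other than the members were named through RefSeq (GRCm38.p6 names only): 22931 by accession, 6654 by symbol and 3106 by older symbol, with 8458 left unnamed. Another 2 probes that RefSeq ties to a member carry a different gene name and were left out. A gene was read at its brightest probe on average. All members are named, and from each list up to 4 genes per pair with the largest differences past 2-fold plus known ligands and partners; for each member the 2 nearest genes were named. The members and lists were chosen with earlier results of these data known. There are no replicates, so the number of arrays limits the precision, and no p-value was computed. Calculations used python 3.11.15, R 4.3.3 and limma 3.58.1 (normexp with offset 50, and quantile normalization). The calling step was tested on simulated data. Alternatives were normexp, quantile, percentile over detected probes, the deposited table, no dimness filter, the mean over probes, and a 4-fold threshold.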

Additional observations from a re-analysis of the deposited data

Results flagged for a closer look

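At their brightest probes Itga1 and Itga6 went in opposite directions in 2 tissues under the same comparison of mutant with control. The difference of Itga1 was 1.88 in interzone and −2.57 on the growth plate arrays. That of Itga6 was 1.15 in interzone and −1.33 on the growth plate arrays. The Itga1 probes disagreed, and with their mean the differences were 0.65 and −0.84, both short of 2-fold. For Itga6 a second probe went the same way, and the remaining probe was less than 2-fold apart in both pairs. Whether the tissues differ was not tested, since each group has 1 array. The growth plate pair also spans 2 slides and runs against its labels at the 2 brighter Tgfbr2 probes.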

How the results depend on the processing

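No paired analysis was possible because each group has 1 array, and for the same reason no array could be left out. Of 18 called member differences, 17 kept their direction and 10 stayed past 2-fold under each alternative that gave a value. Itgav in interzone gave none with the mean over its probes, since 1 of 4 was well above background in the mutant. The growth plate difference of Itgav turned to 2.73 with the mean over its probes, as its probes disagree. Lost 2-fold calls were, at their lowest, Itga1 in interzone (0.65) and on the growth plate arrays (−0.84), Itga5 in interzone (−0.78) and on the growth plate arrays (−0.79), Itga6 (−0.79) and Itgb4 (0.19) on the growth plate arrays, and Itga11 in interdigital tissue (−0.91). The members' interzone median became −0.0465 with normexp, 0.33 in the deposited table, 0.61 without the dimness filter and 0.65 with the mean over probes. The growth plate median became −1.20 with normexp, −0.79 with quantile, −0.96 with the percentile over detected probes, −2.46 in the deposited table and −0.84 with the mean over probes. The interdigital median became −0.0075 in the deposited table and −0.34 with the mean over probes. The cause of these shifts was not tested. Members higher on the labelled growth plate mutant numbered 0 with quantile, in the deposited table and at 4-fold, and 2 with the mean over probes, against 1. Members higher in mutant interdigital tissue numbered 2 with the mean over probes, against 0. At 4-fold, 2 members were higher in mutant interzone and 1 was lower in mutant interdigital tissue. Members called in either direction numbered 1 at 4-fold for control interzone against interdigital tissue, 3 at 4-fold for control growth plate against interdigital tissue, 3 with the mean over probes and 2 at 4-fold for mutant interzone against growth plate, 3 with normexp, 3 with the mean over probes and 2 at 4-fold for mutant interzone against interdigital tissue, and 2 at 4-fold for mutant growth plate against interdigital tissue. Scaling also moved all genes. The higher share of called genes in interzone was 43.2%, against 71.4% with normexp and 54.3% in the deposited table. On the growth plate arrays it was 41.0%, against 16.8% in the deposited table and 54.5% with the percentile over detected probes, with all-gene medians of −0.43, −1.56 and −0.07. In interdigital tissue it was 39.2%, against 51.3% in the deposited table. Between tissues this share ran, over the scalings, from 18.1% to 64.1% for control interzone against growth plate (51.9% as reported), from 44.5% to 63.8% against interdigital tissue (50.5%), and from 33.7% to 85.2% for control growth plate against interdigital tissue (49.8%). For mutant interzone it reached 77.1% against growth plate (53.6%) and 78.5% against interdigital tissue (an even split as reported), both with normexp. The largest Itga11 folds rest on dim values.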
